A study of Mus musculus with 16 samples.

Results

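A set of 10 genes of muscle atrophy and autophagy were followed across the muscles of SOD1G93A and non-transgenic mice: Fbxo32, Foxo3, Bnip3, Map1lc3a, Map1lc3b, Gabarap, Gabarapl1, Gabarapl2, Ctsl and Ctsd. Every probe set (the group of short probes that reports a transcript on an Affymetrix array) whose only annotated gene symbol was one of these was taken, whatever its value. All 10 genes were in the deposited table, with 15 probe sets of the 7053 that carry a single symbol. Of these, 13 passed the filter on dim signals and were tested. A Foxo3 probe set (1434832_at) and a Gabarapl1 probe set (1416418_at) did not.

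The 16 arrays measured total RNA of gastrocnemius and triceps, 4 arrays for each of SOD1G93A gastrocnemius, NTg gastrocnemius, SOD1G93A triceps and NTg triceps. All mice were untreated C57BL/6 females aged 7 weeks, a stage that the series calls presymptomatic. SOD1G93A mice carry a human superoxide dismutase 1 transgene with the G93A substitution, a model of amyotrophic lateral sclerosis, and NTg mice lack it. Both muscles came from the same 4 mice of each genotype. The promoter of the transgene is not given in the sources used here, and no mice with wild-type human SOD1 were analysed here, so effects of the substitution and of added human SOD1 cannot be told apart.

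Muscle fibres lose protein by a pair of routes. Fbxo32 (atrogin-1) is the F-box subunit of a ubiquitin ligase that directs muscle proteins to the proteasome, and Foxo3 is a transcription factor that induces Fbxo32 and autophagy genes when Akt signalling is low. In autophagy, LC3 and GABARAP proteins are attached to the lipid of the growing autophagosome, receptors such as Bnip3 on mitochondria bind them, and lysosomal proteases such as cathepsins L and D degrade what is delivered. Genes of these routes are known to be induced in denervated and fasted muscle, and SOD1G93A mice later lose their motor nerves. In assembly GRCm38.p6 the genes lie on chromosomes 15 (Fbxo32), 10 (Foxo3), 7 (Bnip3 and Ctsd), 2 (Map1lc3a), 8 (Map1lc3b and Gabarapl2), 11 (Gabarap), 6 (Gabarapl1) and 13 (Ctsl).

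Values below are log2 signals as deposited, and a difference is SOD1G93A minus NTg or gastrocnemius minus triceps on that scale. Calls were made where limma gave an adjusted p (Benjamini-Hochberg, over all 4637 tested probe sets) under 0.05. Array medians lay between 7.1 and 7.26. Of the skeletal muscle fibre markers (Tnni2, Atp2a1 and Tnnt3 brightest), 31 of 31 in the table were above the filter, which fits the labelled tissue. The filter uses the mean over the 16 arrays and does not show presence on each. In triceps some lay under its level of 6.75, such as Myh7 (mean 4.17) and Tnnt1 (4.93), against 11.08 and 10.71 in gastrocnemius. A group of 3 triceps arrays stood apart by low fibre markers: in SOD1G93A triceps 2, NTg triceps 1 and NTg triceps 2 the summed signal of the list was 126739, 136212 and 141508, against 221412 to 341079 on the other triceps arrays and 280841 to 397291 in gastrocnemius. Ckm, the muscle creatine kinase, was low on the same arrays. Their part in the results was not tested, and results are given without them where that changes a direction or a call.

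The upstream sequence is shown for Bnip3 and Map1lc3b, whose muscle difference had the same sign in all 8 mice, for Map1lc3b on 1415928_a_at only. It is shown also for Ctsd, the member of smallest p in the gastrocnemius genotype comparison. RefSeq (GRCm38.p6) gave a window for 8 of the 10 genes, all but Fbxo32 and Map1lc3a. The lines hold the 250 bases before the annotated start, 5′ to 3′ on the gene's strand. Capitals mark the core E-box CACGTG, the centre of the sites bound by TFEB-type factors, which control lysosomal genes. The windows lie at chr7:138909507-138909756 on the minus strand for Bnip3, chr8:121590188-121590437 on the plus strand for Map1lc3b and chr7:142387828-142388077 on the minus strand for Ctsd.
Bnip3: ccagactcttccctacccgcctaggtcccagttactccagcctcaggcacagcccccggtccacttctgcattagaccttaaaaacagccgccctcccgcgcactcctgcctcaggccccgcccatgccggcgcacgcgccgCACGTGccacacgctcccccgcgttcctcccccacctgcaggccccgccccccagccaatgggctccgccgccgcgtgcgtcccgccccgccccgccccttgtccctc
Map1lc3b: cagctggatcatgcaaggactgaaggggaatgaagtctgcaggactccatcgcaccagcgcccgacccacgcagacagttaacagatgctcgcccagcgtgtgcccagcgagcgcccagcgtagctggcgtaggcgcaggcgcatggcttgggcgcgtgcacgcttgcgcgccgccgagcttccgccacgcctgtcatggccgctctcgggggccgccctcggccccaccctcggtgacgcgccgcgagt
Ctsd: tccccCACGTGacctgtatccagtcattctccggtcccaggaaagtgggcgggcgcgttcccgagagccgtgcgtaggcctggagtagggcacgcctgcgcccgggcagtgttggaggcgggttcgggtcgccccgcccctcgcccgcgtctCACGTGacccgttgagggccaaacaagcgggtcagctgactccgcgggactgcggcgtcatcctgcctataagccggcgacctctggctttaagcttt

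The Ctsd window holds CACGTG at 245 to 240 and at 98 to 93 bases before the start, and the Bnip3 window at 108 to 103. A match stood also in the Ctsl window, and none in those of Map1lc3b, Foxo3, Gabarap, Gabarapl1 and Gabarapl2. The Ctsl window (64370521-64370770, minus strand) lies inside the span of the gene in the same assembly, 64361890-64370772. Its match is therefore not shown to lie upstream of the gene. Among 32851 RefSeq windows of the same length 6.02% hold it on either strand. The FoxO motif GTAAACA stood in 0 of the 8 windows against 3.17% of all, and the longer E-box in which GT precedes and AC follows the core CACGTG in 0 of 8 against 0.24% of all, both searched on both strands. A match is a description of the letters in the window.

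No member was called between the genotypes in either muscle. In gastrocnemius limma called 0 of 13 member probe sets against 0% of all tested, with 103 of 4637 (2.22%) and 0 of 13 members at an unadjusted p under 0.05. In triceps it called 0 of 13 against 0%, with 118 (2.54%) and 0 of 13 at the unadjusted threshold. The median member difference was 0.04 in gastrocnemius (7 of 13 above 0, range -0.23 to 0.23) beside -0.01 over all tested. In triceps it was 0.10 (11 of 13 above 0, range -0.26 to 0.25) beside 0.02 over all tested. Fibre markers shifted the same way in triceps (28 of 31 above 0, median 0.23, 0 called), against 20 of 31 and 0.07 in gastrocnemius, and their part was not tested. Without the 3 arrays low in Ckm, 8 of the 13 triceps differences changed sign and 5 were above 0. Adjusted p-values were 0.999 for all members in gastrocnemius and 0.994 to 0.997 in triceps (limma). For each probe set limma used 1 spread, shared by the 4 groups and moderated over probe sets, so a group's own spread can differ. The SD of Fbxo32 1417522_at was 0.90 in SOD1G93A gastrocnemius, against 0.34 in NTg gastrocnemius. On that shared spread, the 95% intervals of all 13 tested probe sets, taken 1 at a time, lay within 2-fold in both muscles. Intervals from the arrays of 1 muscle alone are not given here. The widest limma interval reached 1.89-fold in gastrocnemius and 1.90-fold in triceps, and 6 intervals lay within 1.5-fold in both. Those of the dim probe sets, from a fit with no filter, went past 2-fold. Gabarapl1 1416418_at ran from 0.360- to 1.18-fold in gastrocnemius, and Foxo3 1434832_at from 0.490- to 1.38-fold in triceps. In whole muscle, fewer cells of a type and less RNA per cell cannot be told apart.

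**Figure D1:**
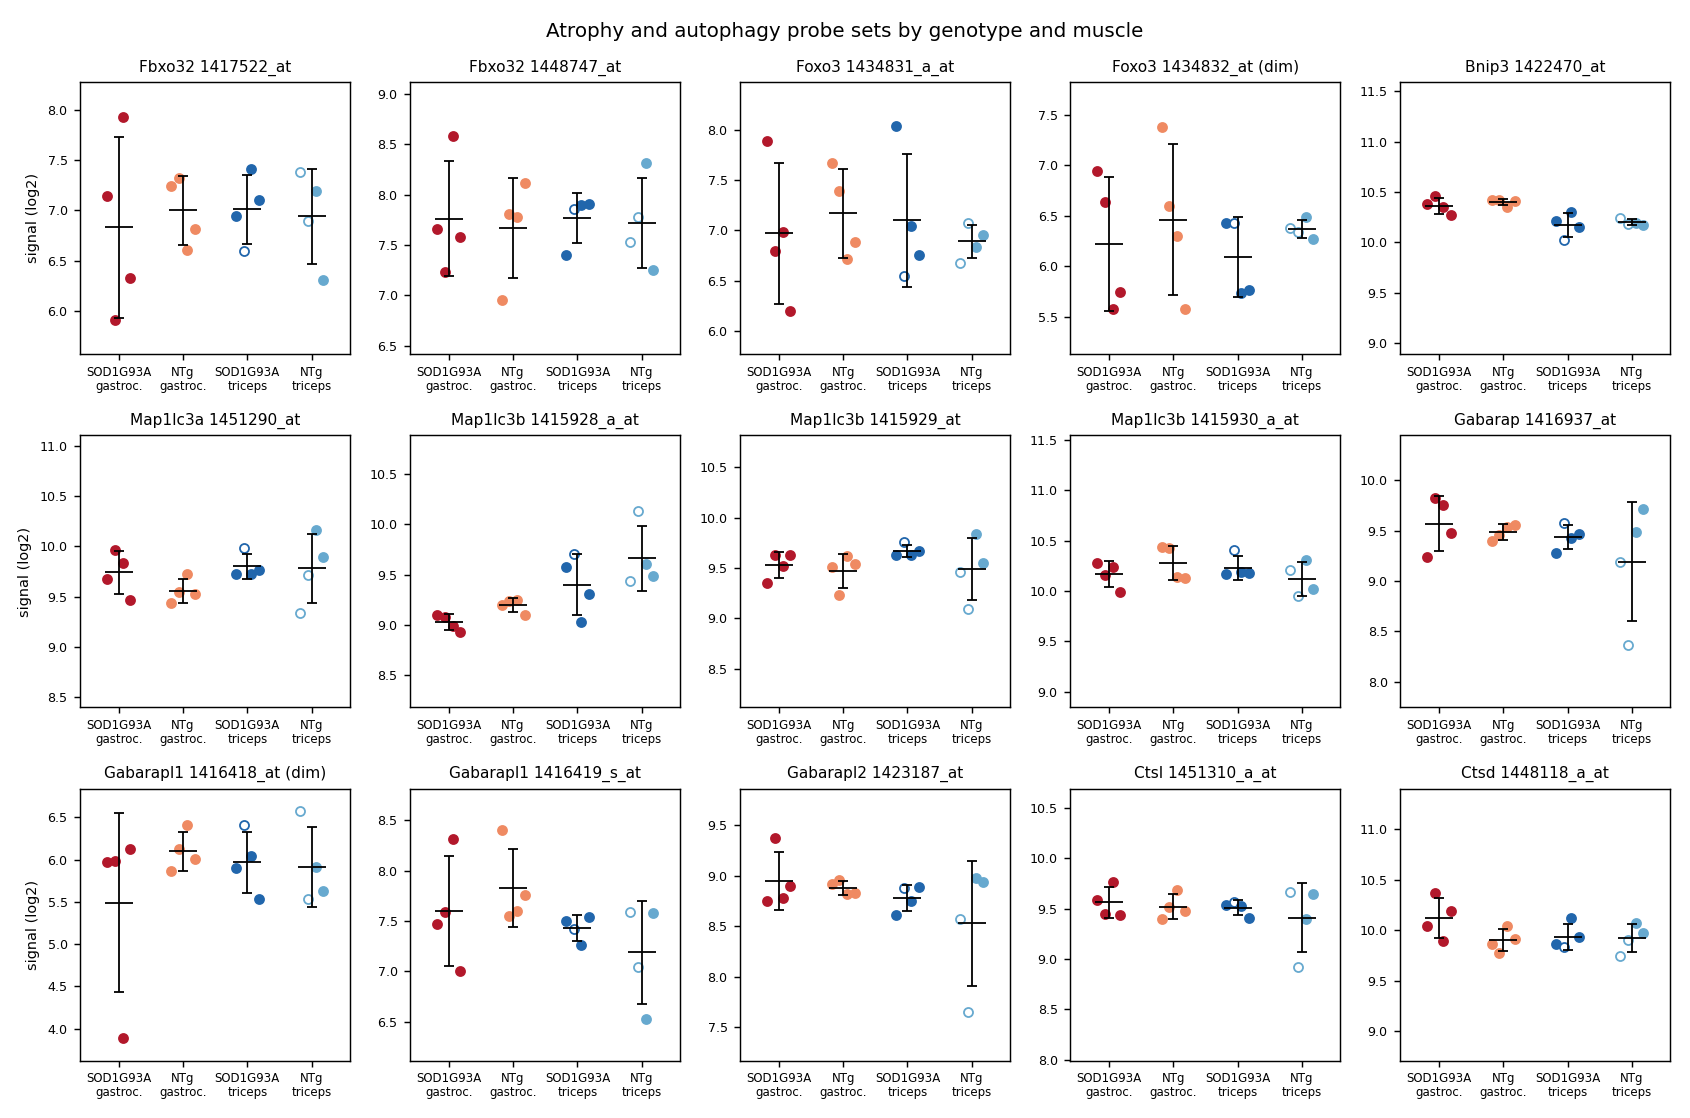
Log2 signal of the member probe sets on each of the 16 arrays, SOD1G93A left of NTg within each muscle, with black bars for mean ± SD (n = 4) and open symbols for the 3 triceps arrays low in Ckm. The genotypes overlap in nearly every panel, and the scatter is narrow for Bnip3 and wide for Fbxo32 and Foxo3.

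The ubiquitin ligase gene Fbxo32 has a pair of probe sets, and neither separated the genotypes. In gastrocnemius 1417522_at read 7.14, 5.91, 7.93 and 6.33 in SOD1G93A mice, against 7.24, 7.32, 6.61 and 6.81 in NTg mice. In triceps it read 6.94, 6.60, 7.41 and 7.10 in SOD1G93A mice, against 7.38, 6.89, 7.19 and 6.31 in NTg mice. SOD1G93A gastrocnemius held both the lowest and the highest of all 16 values, and the NTg values lay between them. The differences were -0.17 in gastrocnemius and 0.07 in triceps (SE 0.35 each).

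The brighter Fbxo32 probe set, 1448747_at, read 7.66, 7.23, 8.58 and 7.58 in SOD1G93A gastrocnemius, against 6.95, 7.81, 7.78 and 8.12 in NTg gastrocnemius. In triceps the values were 7.40, 7.86, 7.90 and 7.91 in SOD1G93A mice and 7.53, 7.78, 8.31 and 7.25 in NTg mice. The groups overlapped in both muscles, with differences of 0.10 and 0.05 (SE 0.29 each). The highest of 16 on both probe sets was SOD1G93A gastrocnemius 3. Without that array the gastrocnemius differences were -0.54 on 1417522_at and -0.18 on 1448747_at, and without SOD1G93A gastrocnemius 2 they were 0.14 and 0.27. For 1417522_at the sign also followed the replicate number, with -0.76 in numbers 1 and 2 and 0.42 in numbers 3 and 4 in gastrocnemius, and -0.36 and 0.50 in triceps. No label names a batch.

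For Foxo3, 1434831_a_at read 7.89, 6.80, 6.98 and 6.20 in SOD1G93A gastrocnemius, against 7.67, 7.39, 6.72 and 6.88 in NTg gastrocnemius. In triceps it read 8.04, 6.55, 7.04 and 6.76 in SOD1G93A mice, against 6.68, 7.07, 6.84 and 6.95 in NTg mice. Mouse 1 of the SOD1G93A group gave the highest value in both of its muscles, and the other values of the genotypes overlapped. SOD1G93A minus NTg came to -0.20 in gastrocnemius and 0.21 in triceps (SE 0.34 each), and without SOD1G93A triceps 1 the triceps difference was -0.10. The dim probe set 1434832_at lay between 5.57 and 7.38 over the 16 arrays, with -0.24 in gastrocnemius and -0.28 in triceps (SE 0.36 each) in a fit with no filter. Both Foxo3 probe sets averaged higher in replicate numbers 1 and 2 than in 3 and 4, with 7.26 against 6.80 on 1434831_a_at and 6.64 against 5.93 on 1434832_at.

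Bnip3, the mitochondrial receptor, was the steadiest member. In gastrocnemius it read 10.38, 10.46, 10.35 and 10.27 in SOD1G93A mice, against 10.42, 10.42, 10.35 and 10.41 in NTg mice. In triceps it read 10.21, 10.02, 10.30 and 10.15 in SOD1G93A mice, against 10.24, 10.18, 10.19 and 10.17 in NTg mice. The genotypes overlapped, and the muscles lay apart except for SOD1G93A triceps 3 and SOD1G93A gastrocnemius 4. Its genotype differences were -0.04 in gastrocnemius and -0.02 in triceps (SE 0.09 each), and the 95% intervals ran from 0.854- to 1.11-fold and from 0.861- to 1.12-fold. Bnip3 was the only one of 13 members with both intervals inside 1.25-fold. Its pooled standard deviation within groups was 0.07, smaller than that of all but 0.0647% of tested probe sets.

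Among the LC3 genes, which encode the lipid-bound proteins of the autophagosome, Map1lc3a read 9.68, 9.96, 9.83 and 9.47 in SOD1G93A gastrocnemius, against 9.44, 9.55, 9.73 and 9.53 in NTg gastrocnemius. In triceps Map1lc3a read 9.73, 9.98, 9.73 and 9.76 in SOD1G93A mice, against 9.34, 9.72, 10.16 and 9.89 in NTg mice. Both comparisons overlapped, with 0.17 in gastrocnemius and 0.03 in triceps (SE 0.15 each). In triceps the sign turned between replicate numbers 1 and 2 (0.33) and 3 and 4 (-0.28), and it was -0.28 without the 3 arrays low in Ckm.

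Map1lc3b has 3 probe sets. On 1415928_a_at gastrocnemius read 9.10, 9.08, 8.99 and 8.93 in SOD1G93A mice, against 9.20, 9.24, 9.25 and 9.10 in NTg mice. In triceps the same probe set read 9.57, 9.70, 9.03 and 9.31 in SOD1G93A mice, against 9.44, 10.13, 9.60 and 9.49 in NTg mice. The gastrocnemius groups met at 9.10 without crossing, and the triceps groups overlapped. Of the 13 members this was the only one whose genotypes did not overlap in gastrocnemius, against 2.7% of all tested (1.32% with SOD1G93A lower), and 0 of 13 did so in triceps, against 0.949%. The differences were -0.17 in gastrocnemius and -0.26 in triceps (SE 0.15 each, from the spread shared by the 4 groups). Within groups the SD was 0.08 (SOD1G93A) and 0.07 (NTg) in gastrocnemius, and 0.30 and 0.32 in triceps. The shared SE is therefore not that of the gastrocnemius arrays alone. Averaged over both muscles, with the mouse as a random block, the difference was -0.22 (SE 0.12, adjusted p = 0.997, limma). That was the smallest p of the 13 members for the averaged effect, which called 0 of 13 against 0% of all tested, and 0 of 13 members at an unadjusted p under 0.05 against 1.83%.

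The other Map1lc3b probe sets did not share that direction throughout. On 1415929_at the values were 9.35, 9.63, 9.52 and 9.63 in SOD1G93A gastrocnemius, against 9.51, 9.23, 9.62 and 9.54 in NTg gastrocnemius. In triceps they were 9.63, 9.76, 9.63 and 9.67 in SOD1G93A mice, against 9.46, 9.09, 9.84 and 9.55 in NTg mice. Groups overlapped, and the differences were 0.06 and 0.18 (SE 0.14 each). Gastrocnemius on 1415930_a_at read 10.28, 10.16, 10.24 and 9.99 in SOD1G93A mice, against 10.44, 10.43, 10.14 and 10.13 in NTg mice. Triceps read 10.17, 10.41, 10.19 and 10.18 in SOD1G93A mice, against 10.21, 9.95, 10.31 and 10.02 in NTg mice. These groups overlapped as well, with -0.11 in gastrocnemius and 0.11 in triceps (SE 0.12 each). The difference between the muscles' genotype effects had its smallest member p here, -0.23 (SE 0.17, adjusted p = 0.999, limma, muscles of a mouse not paired). That comparison called 0 of 13 members against 0% of all tested, with 0 of 13 members at an unadjusted p under 0.05 against 1.85%.

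The GABARAP genes encode the other branch of the same protein family. Gabarap read 9.24, 9.82, 9.76 and 9.48 in SOD1G93A gastrocnemius, against 9.40, 9.46, 9.54 and 9.56 in NTg gastrocnemius. In triceps Gabarap read 9.28, 9.58, 9.43 and 9.47 in SOD1G93A mice, against 9.19, 8.37, 9.49 and 9.72 in NTg mice. A single array, NTg triceps 2, was far below the other 15. Gabarapl2 read 8.75, 9.38, 8.78 and 8.90 in SOD1G93A gastrocnemius, against 8.92, 8.96, 8.82 and 8.83 in NTg gastrocnemius. In triceps Gabarapl2 read 8.61, 8.88, 8.75 and 8.89 in SOD1G93A mice, against 8.57, 7.65, 8.98 and 8.94 in NTg mice. The same NTg triceps array was lowest, and elsewhere the groups overlapped.

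The triceps difference was 0.25 for Gabarap (SE 0.21) and 0.25 for Gabarapl2 (SE 0.22), beside 0.08 and 0.07 in gastrocnemius. Without NTg triceps 2 the triceps differences were -0.03 and -0.05, and without the 3 arrays low in Ckm they were -0.21 and -0.22. On its brighter probe set, 1416419_s_at, Gabarapl1 read 7.47, 7.59, 8.32 and 7.00 in SOD1G93A gastrocnemius, against 8.40, 7.55, 7.60 and 7.76 in NTg gastrocnemius. In triceps it read 7.50, 7.42, 7.26 and 7.54 in SOD1G93A mice, against 7.59, 7.04, 6.53 and 7.58 in NTg mice. The groups overlapped, with -0.23 in gastrocnemius and 0.25 in triceps (SE 0.28 each). The suffix of this probe set marks probes that can match transcripts of more than 1 gene. The dim Gabarapl1 probe set, 1416418_at, lay between 3.89 and 6.57, and the lowest value, in SOD1G93A gastrocnemius 3, carried its gastrocnemius difference of -0.61 (SE 0.41, no filter).

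The lysosomal proteases act last in the pathway. Ctsl (cathepsin L, a cysteine protease) read 9.58, 9.45, 9.76 and 9.44 in SOD1G93A gastrocnemius, against 9.40, 9.52, 9.68 and 9.48 in NTg gastrocnemius. In triceps it read 9.54, 9.56, 9.53 and 9.41 in SOD1G93A mice, against 9.66, 8.92, 9.40 and 9.64 in NTg mice. The groups overlapped and NTg triceps 2 was again lowest, with differences of 0.04 in gastrocnemius and 0.10 in triceps (SE 0.14 each), and -0.06 in triceps without that array.

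Ctsd (cathepsin D, an aspartic protease) read 10.04, 10.37, 9.89 and 10.19 in SOD1G93A gastrocnemius, against 9.86, 9.77, 10.04 and 9.91 in NTg gastrocnemius. In triceps Ctsd read 9.86, 9.83, 10.12 and 9.93 in SOD1G93A mice, against 9.74, 9.90, 10.07 and 9.97 in NTg mice. In gastrocnemius 2 of the 4 SOD1G93A values were above the highest NTg value, and in triceps the groups overlapped. The gastrocnemius difference of 0.23 (SE 0.12, adjusted p = 0.999, limma) was the largest upward one of the members. It was 0.39 in replicate numbers 1 and 2 and 0.07 in numbers 3 and 4, and the triceps difference was 0.01. Macrophages are rich in cathepsins: their marker list (10 of 27 genes in the table, 4 above the filter, Lyz2, Csf1r and Lyz1 brightest) summed to 946 to 1456 in SOD1G93A gastrocnemius and 1353 to 1844 in NTg gastrocnemius, and its part in the difference was not tested.

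**Figure D2:**
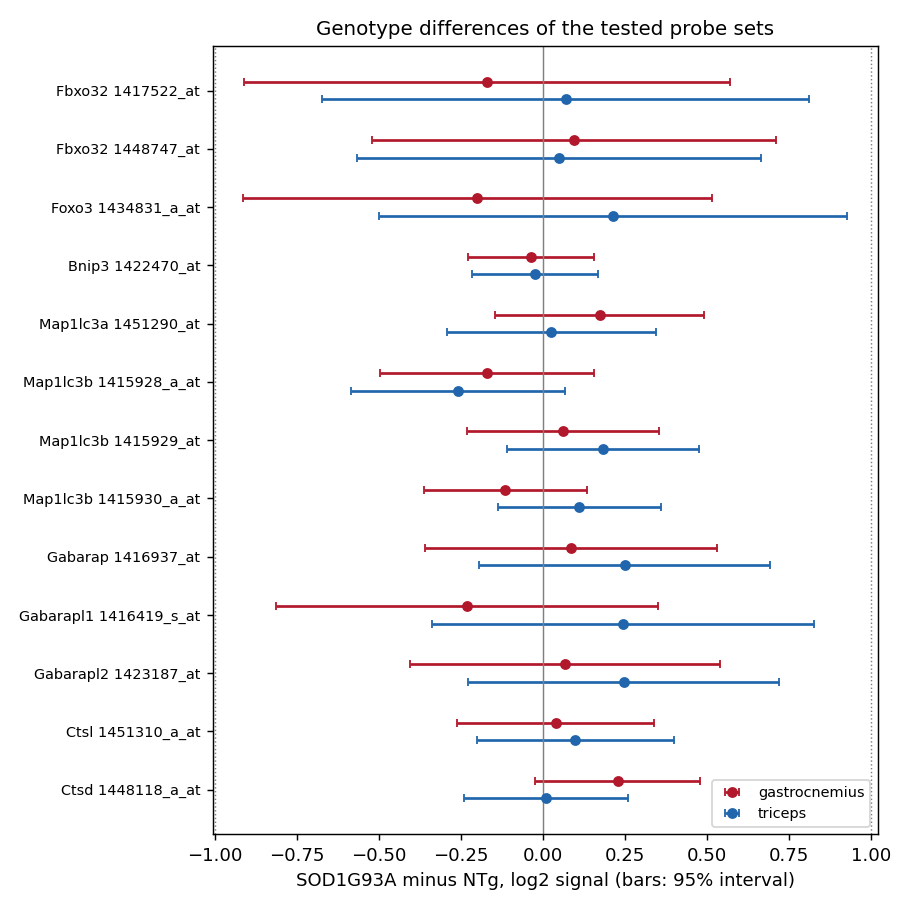
Difference in log2 signal, SOD1G93A minus NTg, for the 13 tested member probe sets in each muscle, with 95% intervals from limma and dotted lines at 2-fold. All intervals cross 0, and the narrowest belong to Bnip3.

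Between the muscles, 1 member was called. Map1lc3b on 1415928_a_at was lower in gastrocnemius, with a mean of 9.11 ± 0.11 in gastrocnemius and 9.53 ± 0.32 in triceps (SD, n = 8 each), a difference of -0.42 (SE 0.11, adjusted p = 0.0408, limma). It was lower in gastrocnemius in 8 of 8 mice, by 0.04 to 0.89, and over both genotypes the muscles overlapped. limma called 171 of all tested (3.69%), 73 of them lower in gastrocnemius (1.57%), so 1 of 13 is to be read against that share. This fit did not pair the muscles of a mouse. With the mouse as a fixed block the calls over all tested numbered 318, and the adjusted p of this probe set was 0.0236 (limma). At an unadjusted p under 0.05 stood 2 of 13 members against 22.3% of all tested. The same sign in 8 of 8 mice was seen for 2 of 13 members, Map1lc3b on this probe set and Bnip3, against 10.3% of all tested.

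Other probe sets of Map1lc3b gave -0.07 on 1415929_at (adjusted p = 0.688) and 0.05 on 1415930_a_at (adjusted p = 0.762, limma), so a muscle difference in this gene rests on 1 of its 3 probe sets. Without the 3 triceps arrays low in Ckm the difference on 1415928_a_at was -0.31 and no longer called (adjusted p = 0.0893, limma). It was not called either with no filter, with arrays centred on the median or with no trend (adjusted p 0.0516 to 0.0599, limma). Leaving out 1 array at a time gave -0.48 to -0.34. The call was lost without any one of the 8 gastrocnemius arrays or without SOD1G93A triceps 1 or SOD1G93A triceps 2 (10 of 16 arrays, adjusted p 0.0586 to 0.0897, limma). NTg triceps 2, at 10.13, was the highest of the 16 arrays. From the highest group mean to the lowest the order was NTg triceps, SOD1G93A triceps, NTg gastrocnemius and SOD1G93A gastrocnemius, and limma called neither pair of neighbours within a muscle.

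Bnip3 was not called between the muscles. Its mean was 10.38 ± 0.06 in gastrocnemius and 10.18 ± 0.08 in triceps (SD, n = 8 each). The difference was 0.20 (SE 0.06, adjusted p = 0.0947, limma). That SE is moderated over probe sets and does not pair the muscles. Bnip3 was higher in gastrocnemius in 8 of 8 mice, by 0.05 to 0.43 (SD of the differences 0.11). The replicate sets gave 0.26 (numbers 1 and 2) and 0.14 (numbers 3 and 4). With the mouse as a fixed block the adjusted p was 0.0974 (limma). The difference was 0.13 with quantile normalization (adjusted p = 0.274) and 0.24 with arrays centred on the median (adjusted p = 0.0783, limma). The largest upward member difference, 0.40 for Gabarapl1 on 1416419_s_at, was not called either (7.71 ± 0.46 in gastrocnemius and 7.31 ± 0.37 in triceps, SD, n = 8 each, adjusted p = 0.231, limma). For Gabarapl2 the value was 0.26, for Gabarap 0.22 and for Map1lc3a -0.14, and for the other tested probe sets the sizes were under 0.10. Without NTg triceps 2 the muscle difference was 0.11 for Gabarapl2 and 0.08 for Gabarap. The muscles differed in markers of several cell types: 11 of 31 fibre genes were called higher in gastrocnemius, among them Myh7 (slow myosin heavy chain) by 6.91, as were both Schwann cell genes in the table, Pmp22 by 1.26 and Mbp by 2.34. Among fibroblast and tendon genes 2 of 9 were called higher, Col1a1 by 1.31 and Fmod by 0.66, with 8 of 9 above 0, and of 8 adipocyte genes Lpl was called higher, by 0.69. What these have to do with Map1lc3b was not tested.

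**Figure D3:**
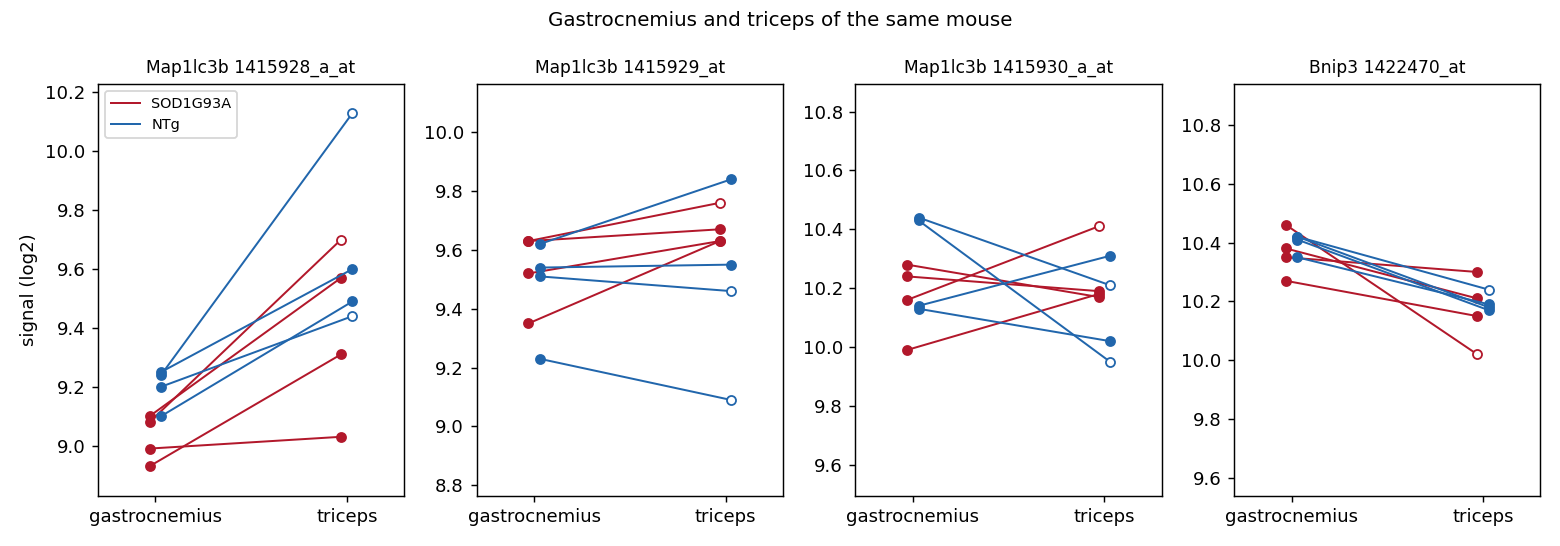
Log2 signal of member probe sets in the gastrocnemius (left) and triceps (right) of each mouse, lines joining the muscles of 1 mouse and open symbols for the 3 triceps arrays low in Ckm. Lines run upward to triceps in all 8 mice for Map1lc3b 1415928_a_at and downward in all 8 for Bnip3.

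The other genes of these routes, on lists partly chosen with earlier results known, were not called in any comparison: 0 of 11 tested ubiquitin ligases and regulators of wasting, 0 of 9 genes of autophagosome formation, 0 of 9 autophagy receptors and mitophagy genes, 0 of 26 lysosomal genes, 0 of 13 Akt and mTOR genes and 0 of 14 genes of the glucocorticoid and fasting response. Each listed gene was read on its brightest tested probe set only, so a muscle call on another probe set of it would not be counted. These counts are to be read against the shares over all tested probe sets, 0% in each genotype comparison and 3.69% between the muscles. Those shares are not limited to 1 probe set per gene. Median genotype differences in gastrocnemius were 0.04, -0.06, 0.07, 0.02, 0.03 and -0.22 in the order of the lists, beside -0.01 over 3034 genes. In triceps they were 0.12, -0.09, -0.08, -0.01, 0.00 and -0.26, beside 0.02. The lowest medians in both muscles were those of the glucocorticoid and fasting response, with 5 of 14 genes above 0 in gastrocnemius and 3 of 14 in triceps. It included Sgk1 (a kinase induced by glucocorticoids) at -0.45 (SE 0.23) in gastrocnemius and -0.39 (SE 0.23) in triceps, and Cebpd at -0.84 (SE 0.61) in gastrocnemius, while Txnip was 0.27 (SE 0.14) in gastrocnemius and 0.47 (SE 0.14) in triceps, none called. Fundc1, another mitochondrial receptor for LC3, was -0.56 (SE 0.20) in gastrocnemius and not called (adjusted p = 0.999, limma). For the muscles, the nearest to a call were Ctsa (a lysosomal carboxypeptidase) at -0.45 (adjusted p = 0.0633), Sesn1 at -0.45 (adjusted p = 0.0655) and Eif4e at 0.48 (adjusted p = 0.0713, limma).

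From array to array, the median correlation over the 105 pairs of member probe sets was r = 0.07, from -0.68 to 0.92, with 49 pairs below 0. Gabarap and Gabarapl2 correlated at r = 0.92 over the 16 arrays and at 0.70 over the 15 without NTg triceps 2. Gabarap and Ctsl correlated at 0.73, and at 0.10 without that array. NTg triceps 2 was the lowest of 16 for 5 of the 15 member probe sets (1415929_at and 1415930_a_at of Map1lc3b, Gabarap, Gabarapl2 and Ctsl). Bnip3 and Map1lc3b 1415928_a_at ran against each other at r = -0.68, and at -0.73 without the array. The arrays come from 8 mice in 4 groups and share mouse, muscle and array quality, so these values describe the table. The genes most like each member over the arrays were Ankrd2 and Csrp3 for Bnip3 (r = 0.93 and 0.91, and 0.94 and 0.90 without the 2 arrays farthest from the median). Foxo3 ran with Tiparp and Nckap1 (0.85 and 0.81, then 0.78 and 0.79). Map1lc3b on 1415930_a_at ran with Pcna and Myf6 (0.83 and 0.75, then 0.80 and 0.75). Gabarap ran with Chchd3 and Bsg (0.96 and 0.94, then 0.78 and 0.65). Gabarapl2 ran with Chchd3 and Ndufs7 (0.93 and 0.92, then 0.60 and 0.55). Ctsl ran with Banf1 and Nfix (0.89 and 0.87, then 0.52 and 0.22). Ctsd ran with Ilk and Inpp5a (0.82 and 0.81, then 0.67 and 0.48). Gabarapl1 on 1416419_s_at ran with Ostc and Tomm22 (0.80 and 0.79, then 0.68 and 0.66). Fbxo32 on 1448747_at ran with Eif2d and Eprs (0.71 and 0.67, then 0.55 and 0.61). Map1lc3a ran with Stard10 and Chac1 (0.70 and 0.70, then 0.45 and 0.57).

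The members differed in how much they varied within groups. The pooled standard deviation was 0.56 and 0.46 for the Fbxo32 probe sets, 0.54 for Foxo3 1434831_a_at and 0.43 for Gabarapl1 1416419_s_at, all above the median of 0.28 over tested probe sets. For Map1lc3a it was 0.22, for the Map1lc3b probe sets 0.22, 0.19 and 0.15, for Ctsl 0.20 and for Ctsd 0.15, below the median. Gabarap and Gabarapl2 lay at 0.33 and 0.35.

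**Figure D4:**
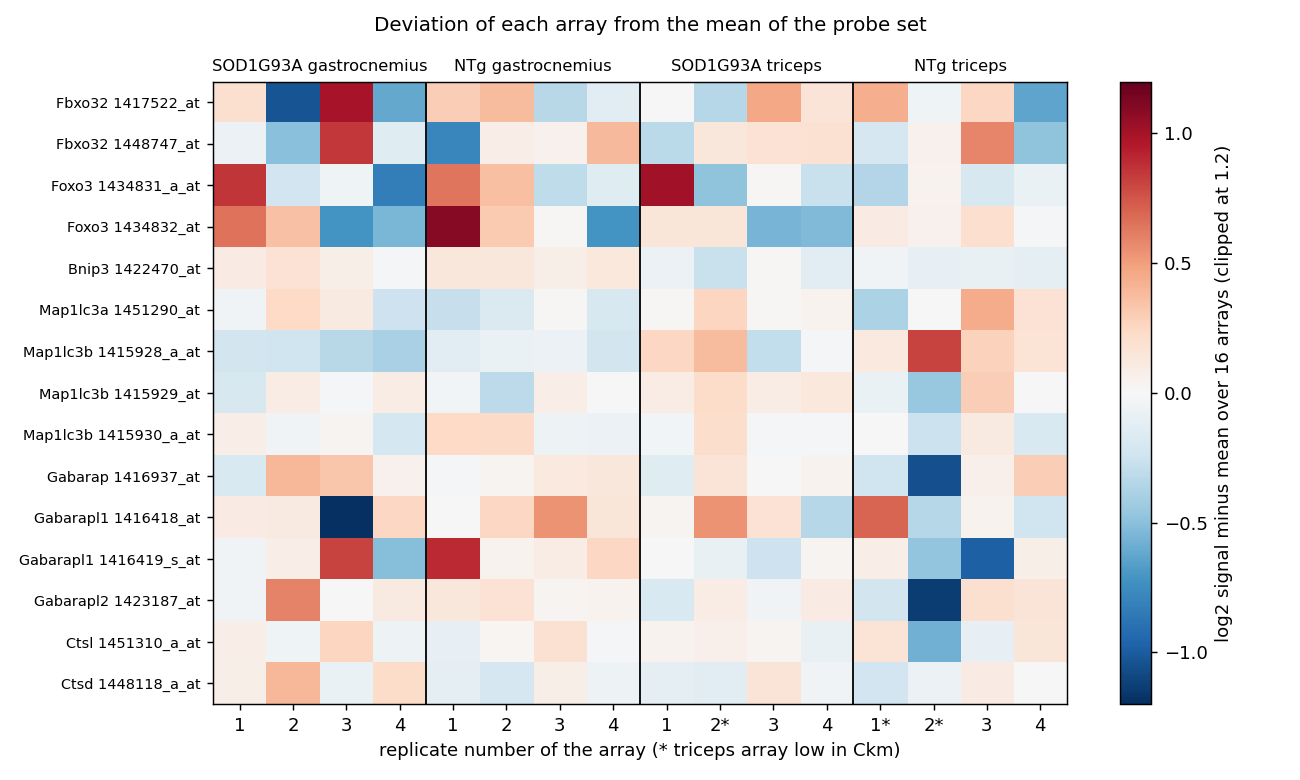
Deviation of each member probe set from its mean over the 16 arrays, in log2 units clipped at 1.2, with arrays ordered by group and asterisks on the triceps arrays low in Ckm. NTg triceps 2 is low for Gabarap, Gabarapl2 and Ctsl and high for Map1lc3b 1415928_a_at.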

How the data were processed

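Total RNA of each muscle was hybridised to Affymetrix mouse expression arrays. The deposited table holds 1 log2 value for 7729 probe sets on 16 arrays; MAS5 is the only tool in the submitters' processing notes, and its scaling is not given in the sources used here. Base 2 was read from the values, -0.773 to 14.81. For arrays no depth applies, and their number limits the precision. By the platform annotation 7053 probe sets have 1 symbol, 330 several and 346 none. Probe sets with a mean above the 40th percentile (log2 6.75) were tested with limma 3.58.1 in R 4.3.3 (lmFit, eBayes with a trend, 1 mean per group, Benjamini-Hochberg). The averaged genotype effect used the mouse as a random block (consensus correlation 0.18). The series design text gives 4 mice per genotype for both muscles, so same-numbered muscles were taken as 1 mouse. Deviations of these pairs correlated at 0.14 to 0.39, 8 of 8 best with their own number. Same-numbered arrays of different genotype within a muscle reached 0 to 0.37, 1 of 8 best with their own number. Pairs of different muscle and genotype, from different mice, often matched best by number as well. For NTg gastrocnemius with SOD1G93A triceps this held at numbers 1, 2 and 3 (0.23, 0.26 and 0.19). For SOD1G93A gastrocnemius with NTg triceps it held at numbers 1 and 3 (0.22 and 0.12). The remaining pairs of this kind matched another number best. The correlation alone therefore does not identify the mouse. The muscle comparison and the difference between the muscles' genotype effects were fitted without the mouse. For both, the mouse as a fixed block was an alternative.

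The members and gene lists were chosen with earlier results of these data known. Genes of the lists were read on the brightest tested probe set of each, and marker sums on the brightest in the table. All member probe sets are named; for other genes, each list's called genes or, below 3 calls, its 3 of smallest p, and for each member the 2 most correlated genes. The text names part of these, and Myh7, Pmp22, Mbp, Col1a1, Fmod and Lpl are among those called. Fits were tested on simulated data. Alternatives were the filter, normalization, trend, blocks and leaving out arrays.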

Additional observations from a re-analysis of the deposited data

Results flagged for a closer look

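In 5 of the 60 member groups, each of 4 arrays, there was a value far from the other 3, and chance alone gives about 1 in 20. On Fbxo32 1448747_at, SOD1G93A triceps 1 read 7.40 while the others lay between 7.86 and 7.91. On Bnip3, NTg gastrocnemius 3 read 10.35, below the other values of 10.41 to 10.42. SOD1G93A triceps 2, an array low in Ckm, was highest of its group on Map1lc3a (9.98, others 9.73 to 9.76) and on Map1lc3b 1415930_a_at (10.41, others 10.17 to 10.19). On the dim Gabarapl1 probe set 1416418_at, SOD1G93A gastrocnemius 3 read 3.89, against 5.97 to 6.12 for the others.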

How the results depend on the processing

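Genotype comparisons called 0 members in all settings tried, with the filter, normalization, trend, blocks and arrays changed in turn. Of 1002 recomputed member values, 942 kept their direction and side of the threshold, 46 changed sign and 14 lost a call; the changes of sign were all in values that were not called. With quantile normalization the triceps genotype difference of Ctsd was -0.0080, and the muscle differences were -0.016 for Map1lc3b 1415930_a_at and 0.0054 for Fbxo32 1448747_at. With arrays centred on the median they were -0.00068 for Ctsd in triceps and 0.010 for Fbxo32 1448747_at between muscles. Without the 3 triceps arrays low in Ckm, the triceps difference was -0.055 for Map1lc3b 1415929_at, -0.21 for Gabarap, 0.038 for Bnip3, -0.22 for Gabarapl2, -0.055 for Ctsd, -0.043 for Fbxo32 1448747_at, -0.28 for Map1lc3a and -0.032 for Ctsl, so 8 of 13 signs turned, with 2 NTg and 3 SOD1G93A triceps arrays left; the muscle difference of Foxo3 1434831_a_at was -0.022.

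For the muscles, 1 member was called, and 0 were called with no filter, with arrays centred on the median, with no trend or without the 3 arrays low in Ckm; leaving out 1 array gave 0 to 1. The count over all probe sets, 171, was 318 with the mouse as a fixed replicate block and 436 with a block for replicate numbers 1 and 2 versus 3 and 4, 103 without the 3 arrays, and 99 to 272 leaving out 1 array (99 without SOD1G93A triceps 2, 272 without NTg triceps 3). The cause was not tested. The paired block ended no member call.

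Leaving out 1 array at a time, the gastrocnemius genotype difference ran from -0.022 to 0.12 for Map1lc3b 1415929_at, -0.54 to 0.14 for Fbxo32 1417522_at, -0.18 to 0.27 for Fbxo32 1448747_at, -0.075 to 0.13 for Gabarapl2, -0.51 to 0.057 for Foxo3 1434831_a_at and -0.027 to 0.093 for Ctsl. In triceps it ran from -0.025 to 0.42 for Gabarap, -0.14 to 0.22 for Fbxo32 1417522_at, -0.11 to 0.25 for Fbxo32 1448747_at, -0.068 to 0.025 for Bnip3, -0.050 to 0.40 for Gabarapl2, -0.099 to 0.40 for Foxo3 1434831_a_at, -0.051 to 0.059 for Ctsd, -0.12 to 0.15 for Map1lc3a and -0.062 to 0.18 for Ctsl. The muscle difference ran from -0.25 to 0.089 for Fbxo32 1417522_at, -0.17 to 0.090 for Fbxo32 1448747_at and -0.080 to 0.23 for Foxo3 1434831_a_at.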
